A study of Mus musculus with 6 samples.

Results

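Small nucleolar RNAs (snoRNAs) were read in 73 of the 22180 genes that had a probe set of their own on the arrays. A gene counted as a member when a probe set's sole annotated symbol began with Snord or Snora followed by a digit, which chose by name and not by measured level. These were 47 C/D box genes (Snord) and 26 H/ACA box genes (Snora). RNA came from cultured mouse leukaemia cells of the B lineage (B-ALL) that carried BCR-ABL in both groups. One group received 312 nM dihydroartemisinin (DHA, an antimalarial of the artemisinin family) for 4 h, and the other the solvent dimethyl sulphoxide (vehicle), with 3 arrays per group. The growth protocol names p185 or p185 T315I cells lacking Arf or p53 without saying which line was arrayed, and the extraction protocol also names 2 h. Whether samples of a group were independent cultures is unstated, and p-values therefore reflect a spread that may be only technical. In bulk RNA, fewer cells with a snoRNA and less of it per cell cannot be told apart.

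C/D box snoRNAs guide the ribose methylation of ribosomal RNA by the methyltransferase fibrillarin, and H/ACA box snoRNAs guide the conversion of uridine to pseudouridine by dyskerin. A few members of either class serve the cleavage of the ribosomal RNA precursor instead. Most mammalian snoRNAs are cut out of introns of other genes, so that the spliced RNA of the containing (host) gene and the snoRNA come from the same transcript. Many hosts encode ribosomal proteins, translation factors or nucleolar proteins, and others are long noncoding RNAs whose spliced product has no coding role. A probe for a snoRNA reads the same bases in the mature snoRNA and in an unspliced host intron, and these could not be told apart here.

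The snoRNA sequences themselves were not used here. The starts of the long noncoding hosts are shown because they contain several members described below. Host transcripts are known for beginning with a run of pyrimidines, as do the messenger RNAs of ribosomal proteins. Each line gives 50 bases of the transcribed strand, 30 before and 20 from the annotated start, from RefSeq (build GRCm38.p6), with the longest run of C and T near the start in capitals.
Snhg1, host of Snord22, chr19:8723457-8723506, plus strand: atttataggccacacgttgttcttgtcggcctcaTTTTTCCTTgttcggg
2410006H16Rik, host of Snord49a, Snord49b and Snord65, chr11:62602847-62602896, plus strand: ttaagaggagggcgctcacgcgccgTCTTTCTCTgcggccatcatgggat
Snhg12, host of Snora16a, Snora44, Snora61 and Snord99, chr4:132308648-132308697, plus strand: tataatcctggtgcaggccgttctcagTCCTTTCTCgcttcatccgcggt
1110038B12Rik, host of Snord52, chr17:34952449-34952498, minus strand: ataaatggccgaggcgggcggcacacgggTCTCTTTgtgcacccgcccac
Snhg3, host of Snora73a and Snora73b, chr4:132353667-132353716, minus strand: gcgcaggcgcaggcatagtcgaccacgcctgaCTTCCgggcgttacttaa
Gas5, host of Snord47, chr1:161035136-161035185, plus strand: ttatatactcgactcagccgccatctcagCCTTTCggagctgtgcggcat
Tested members that were assigned a single host lay in 51 hosts, of which 40 had a start in the RefSeq table of starts. In 19 of these (47.5%) a run of 6 or more C or T bases lay near a listed start. The stretch searched went from 10 bases before to 15 bases from it, on the transcribed strand. These hosts include some without a tested value, such as Gas5, and are not the same set as the 40 tested hosts below. Among all 27025 genes of the table the share was 27.6%. Snhg3, with a run of 5, was below that length, as was a further listed start of Gas5 with a run of 3, which is not shown.

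The members lay at levels from dim to bright. Genes whose mean over the 6 arrays lay under 4.52 on the log2 scale, the 30th percentile of all genes, were left out of the test. Of the members, 70 passed (45 Snord and 25 Snora), and Snora19 (mean 3.90), Snord90 (4.26) and Snord91a (4.13) did not. The filter used the mean of all arrays and not the group. Means of the 70 ran from 4.93 for Snord123 to 12.43 for Snora33, with a median of 8.28 beside 7.02 over all 15526 tested genes. Levels of different probe sets depend on their probes, so a higher mean does not show a more abundant RNA. Means of members were ranked only to choose which to describe. Snora35, whose containing gene Htr2c encodes a serotonin receptor of the brain, measured 5.64 to 5.78 on the 6 arrays.

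**Figure D1:**
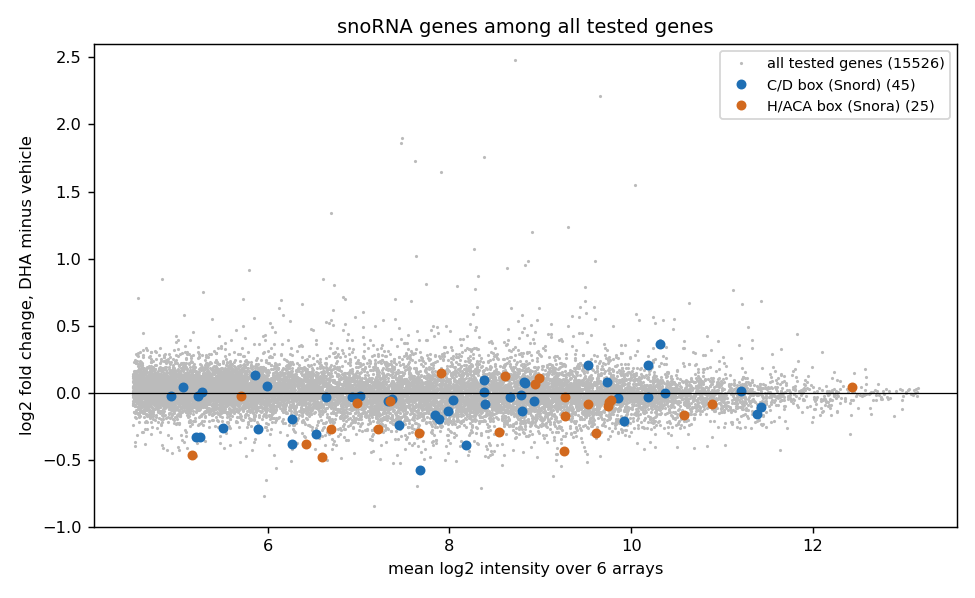
Mean log2 intensity over the 6 arrays (horizontal) against the log2 fold change of DHA minus vehicle (vertical) for 15526 tested genes (grey), 45 Snord genes (blue) and 25 Snora genes (orange). The snoRNA genes span means of 4.93 to 12.43 and log2 fold changes of -0.58 to 0.36, and more of them lie below 0 than above.

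No snoRNA gene passed the test after 4 h of DHA, and most measured slightly lower. With limma over all tested genes, 0 of 70 reached an adjusted p at or under 0.05, where 0.0902% of all genes did (0.0837% higher and 0.00644% lower). At so low a share, a count of 0 among 70 says nothing particular about the snoRNA genes. Adjusted p of the 70 ran from 0.234 to 0.995 (limma). The log2 fold change was below 0 in 52 of the 70, beside 48.8% of all genes, and the median was -0.063 beside 0.0027 over all genes. At an unadjusted p under 0.05 there were 9 lower members and 1 higher, where 6.08% and 5.94% of all genes lay. The groups did not overlap in 9 members that were lower and in 0 that were higher, against 8.19% and 7.64% of all genes.

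In both classes most genes measured lower, and the class medians differed by less than the spread between arrays. Among Snord genes 32 of 45 were lower, with a median of -0.036 and quartiles of -0.20 and 0.0059. Among Snora genes 20 of 25 were lower, with a median of -0.083 and quartiles of -0.29 and -0.032. The class medians differed by 0.047, less than the SD of 0.063 between arrays of a group for the same difference. Each class median had an SD of 0.079 between arrays of a group. The Snord shift was smaller in size than that SD and the Snora shift slightly larger. These SDs describe single arrays. A difference between means of 3 arrays varies less, so they are not the error of the shifts or of the class difference. At an unadjusted p under 0.05 lay 6 lower and 1 higher of 45 Snord genes and 3 lower and 0 higher of 25 Snora genes. Over all genes 6.08% lay there lower and 5.94% higher. A log2 fold change under -0.3 was measured in 6 of 45 Snord and 6 of 25 Snora genes and in 1.44% of all genes. In either direction 13 of 70 members were past 0.3, beside 3.23% of all genes. The members were also noisier, with a median standard error (SE) of 0.13 on the log2 scale beside 0.068 over all genes. The median width of the 95% intervals was 0.596, so a change of the size of the class medians was not detectable for a single gene.

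**Figure D2:**
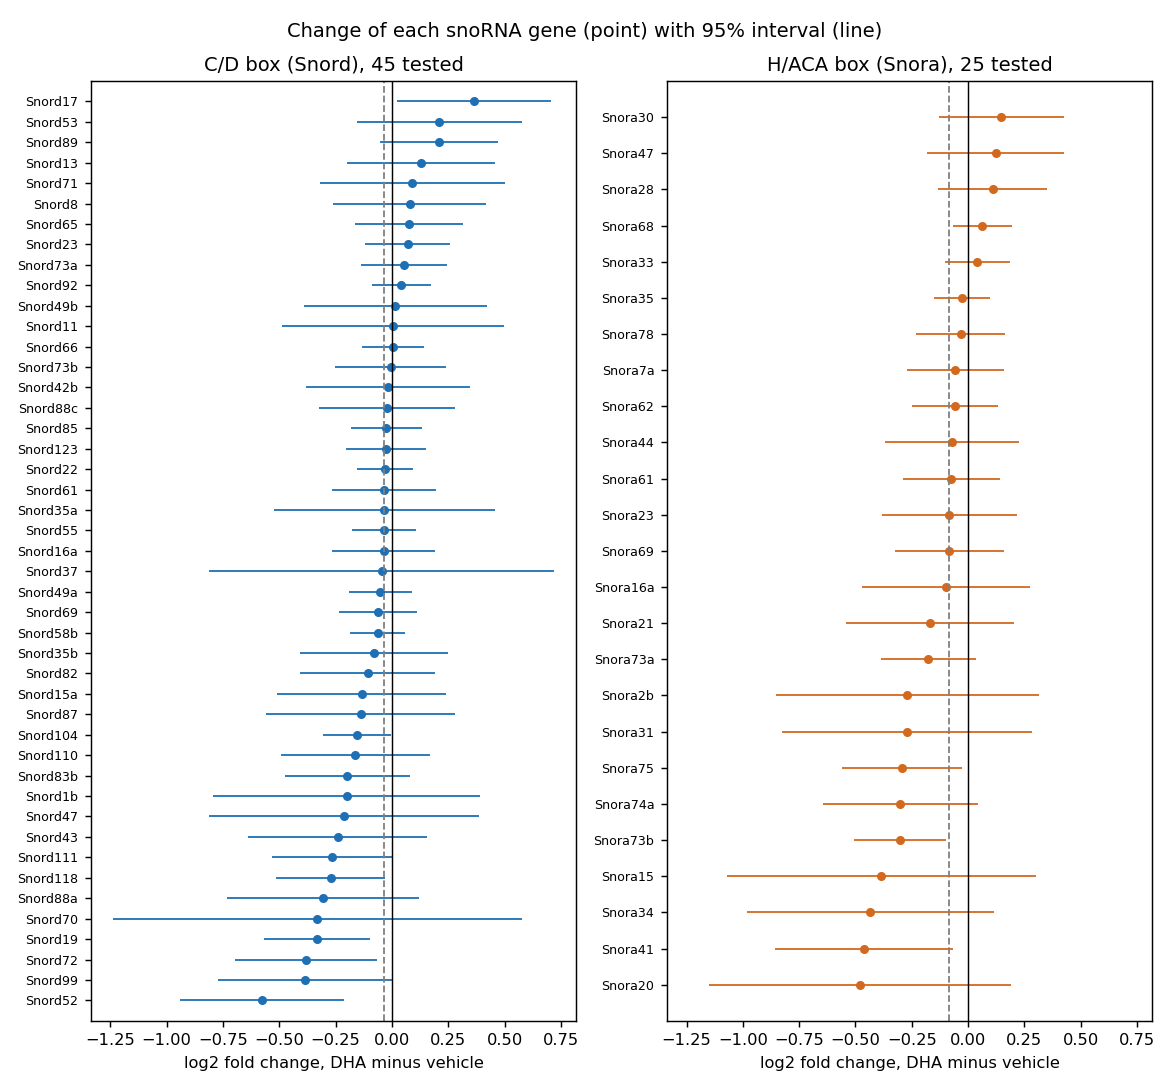
Log2 fold change (DHA minus vehicle, horizontal) of each tested snoRNA gene with its 95% interval from limma, for 45 Snord genes (left) and 25 Snora genes (right). The dashed lines are the class medians, -0.036 and -0.083, and 52 of the 70 points lie left of 0.

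Among the C/D box genes, the largest difference was in Snord52. Its log2 values were 7.98, 7.80 and 8.09 with vehicle and 7.08, 7.67 and 7.40 with DHA. All 3 DHA values lay under the lowest vehicle value. The log2 fold change was -0.58 (SE 0.15, 0.671-fold), with a limma adjusted p of 0.234. Snord19, which lies within the nucleolar protein gene Gnl3, measured 5.32, 5.47 and 5.49 with vehicle and 4.93, 5.28 and 5.07 with DHA. The groups were again separate, with a difference of -0.33 (SE 0.099; limma adjusted p = 0.270). Snord19 was dim, with a mean of 5.26 over the 6 arrays, at percentile 21.1 of the tested genes. Snord72, within the ribosomal protein gene Rpl37, went from 6.40, 6.66 and 6.29 to 6.08, 6.28 and 5.86, where the top DHA value was just under the lowest vehicle value (-0.38, SE 0.13; limma adjusted p = 0.336).

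Snord99, within Snhg12, measured 8.69, 8.24 and 8.20 with vehicle and 8.10, 8.13 and 7.73 with DHA. Vehicle replicate 1 and DHA replicate 3 stood apart from the other 4 arrays in it (-0.39, SE 0.16; limma adjusted p = 0.414). Snord104 had a smaller difference of -0.16 (SE 0.063; limma adjusted p = 0.397) with tight groups, at 11.45, 11.50 and 11.45 against 11.38, 11.36 and 11.19. Snord111, within the splicing factor gene Sf3b3, had -0.26 and overlapping groups (limma adjusted p = 0.416).

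Snord17 was the one member higher with DHA at an unadjusted p under 0.05. It lies within Snx5, a gene for a sorting nexin of endosomes. Its values were 10.20, 10.06 and 10.15 with vehicle and 10.79, 10.52 and 10.19 with DHA. DHA replicates 1 and 2 were above every vehicle array, whereas DHA replicate 3 lay between them, so the groups overlapped. The log2 fold change was 0.36 (SE 0.14, 1.29-fold; limma adjusted p = 0.390).

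Among the 25 tested H/ACA box genes, 4 were lower with groups that did not overlap, beside 8.19% of all genes. They were Snora73b, Snora41, Snora75 and Snora74a. Snora41, within the elongation factor gene Eef1b2, measured 5.34, 5.41 and 5.42 with vehicle and 4.53, 5.04 and 5.22 with DHA. The vehicle arrays were close and the DHA arrays spread over a wide range, and the difference was -0.46 (SE 0.17; limma adjusted p = 0.347). Snora41 was dim, with a mean of 5.16 over the 6 arrays, at percentile 18.5 of the tested genes. Snora75, within the nucleolin gene Ncl, went from 8.61, 8.94 and 8.54 to 8.51, 8.32 and 8.37. DHA replicate 1 lay just under the lowest vehicle array (-0.29, SE 0.11; limma adjusted p = 0.374). Snora74a, within Snhg4, had -0.30 (SE 0.14; limma adjusted p = 0.473), most of it from DHA replicate 3 at 7.17, as the other DHA arrays were at 7.69 and the vehicle arrays at 7.73 to 7.87.

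Some of the largest Snora differences came with large errors. Snora20, within the chaperonin gene Tcp1, had -0.48 (SE 0.28), Snora34, within Kansl2, -0.43 (SE 0.23) and Snora15, within the chaperonin gene Cct6a, -0.39 (SE 0.29), with limma adjusted p of 0.549, 0.510 and 0.641. In each of them the groups overlapped and the lowest of the 6 arrays was DHA replicate 3, at 8.51 in Snora34 and 5.75 in Snora15.

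Of the 5 members per class with the highest means, Snord104 and Snord17 are given above. Snora33, within Rps12, measured 12.46, 12.42 and 12.36 with vehicle and 12.55, 12.44 and 12.37 with DHA. Its groups overlapped (0.040, SE 0.061; limma adjusted p = 0.830). Snord82, within Ncl, measured 11.62, 11.62 and 11.22 with vehicle and 11.46, 11.46 and 11.22 with DHA. Replicate 3 was the lowest of both groups (-0.11, SE 0.13; limma adjusted p = 0.773). Snora23, within the importin gene Ipo7, had -0.083 and Snora21, within Rpl23, -0.17. Snora7a, within Rpl32, had -0.056 and Snord73b, within Rps3a1, -0.0049. All 4 had overlapping groups and limma adjusted p of 0.709 to 0.991, and DHA replicate 3 was the lowest of the 6 arrays in each.

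**Figure D3:**
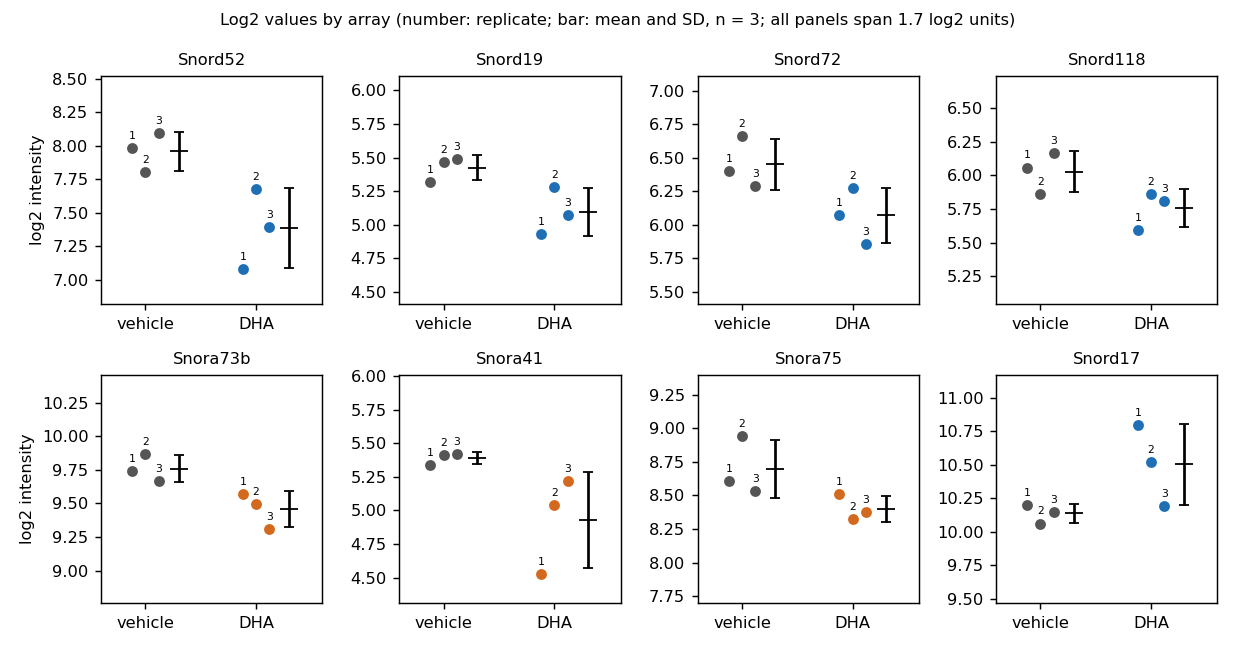
Log2 intensity (vertical) of 8 snoRNA genes by array, with the replicate number over each point and the mean and SD of 3 arrays as a bar. In Snord52, Snord19, Snord72, Snora73b, Snora41 and Snora75 the DHA points lie below the vehicle points, in Snord118 vehicle replicate 2 and DHA replicate 2 are level, and in Snord17 the DHA points are higher but reach into the vehicle range.

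Of the snoRNAs that serve cleavage of the ribosomal RNA precursor, 5 of the 13 listed were members. Snora73a and Snora73b are copies of the snoRNA that takes part in the maturation of small subunit ribosomal RNA, and both lie within Snhg3. Snora73b measured 9.74, 9.87 and 9.67 with vehicle and 9.57, 9.49 and 9.31 with DHA, with separate groups (-0.30, SE 0.085; limma adjusted p = 0.250). Snora73a measured 9.37, 9.53 and 9.18 and then 9.19, 9.18 and 9.19, so that vehicle replicate 3 was level with the DHA arrays (-0.18, SE 0.088; limma adjusted p = 0.493). Their sequences are alike, and whether the probe sets read both copies was not tested.

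Snord118, which is needed for large subunit ribosomal RNA and has a promoter of its own, lay in no other gene of the RefSeq table. It measured 6.06, 5.86 and 6.17 with vehicle and 5.60, 5.86 and 5.81 with DHA, and vehicle replicate 2 and DHA replicate 2 were equal (-0.27, SE 0.10; limma adjusted p = 0.362). Snord13, likewise in no containing gene, had 5.62, 5.77 and 5.98 with vehicle and 5.77, 6.20 and 5.79 with DHA (0.13, SE 0.14; limma adjusted p = 0.748). Snord22, within Snhg1, was nearly level at 6.95, 6.99 and 6.88 against 6.92, 6.95 and 6.86 (-0.030, SE 0.052; limma adjusted p = 0.853). In this group 4 of 5 were lower, beside 48.8% of all genes, with a median of -0.18. The test called 0 of the 5, beside 0.0902% of all genes, which says nothing particular about them.

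One array carried much of the shift. DHA replicate 3 held the lowest of the 6 values in 34 of the 70 members (21 of 45 Snord and 13 of 25 Snora), beside 14.5% of all tested genes. It held the highest value in 0 of the 70, beside 18.2% of all genes. The median deviation of a Snord gene from its own mean was -0.13 on that array, against -0.0072 and 0.072 on DHA replicates 1 and 2 and -0.027 to 0.070 on the vehicle arrays. For Snora genes it was -0.16 there, against -0.017 and 0.041 on the other DHA arrays and 0.023 to 0.099 with vehicle. Without that array the Snord median was 0.0031, with 22 of 45 lower, and the Snora median -0.045, with 16 of 25 lower. The sign of the Snord median thus rested on DHA replicate 3.

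Other small RNA genes differed in how they measured on that array. DHA replicate 3 was the lowest array in 29 of 184 microRNA genes (15.8%), close to the background, and in 3 of 5 small Cajal body RNA genes, which guide the modification of spliceosomal RNA. The single 5S ribosomal RNA gene was lowest there too, with a deviation of -0.27, and the 3 small nuclear RNA genes had a median deviation of -0.098, with 1 of them lowest there. Among the 40 tested host genes it was the lowest array in 3. The median over all genes on it deviated by 0.0052. What set the snoRNA values of this array apart was not tested.

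**Figure D4:**
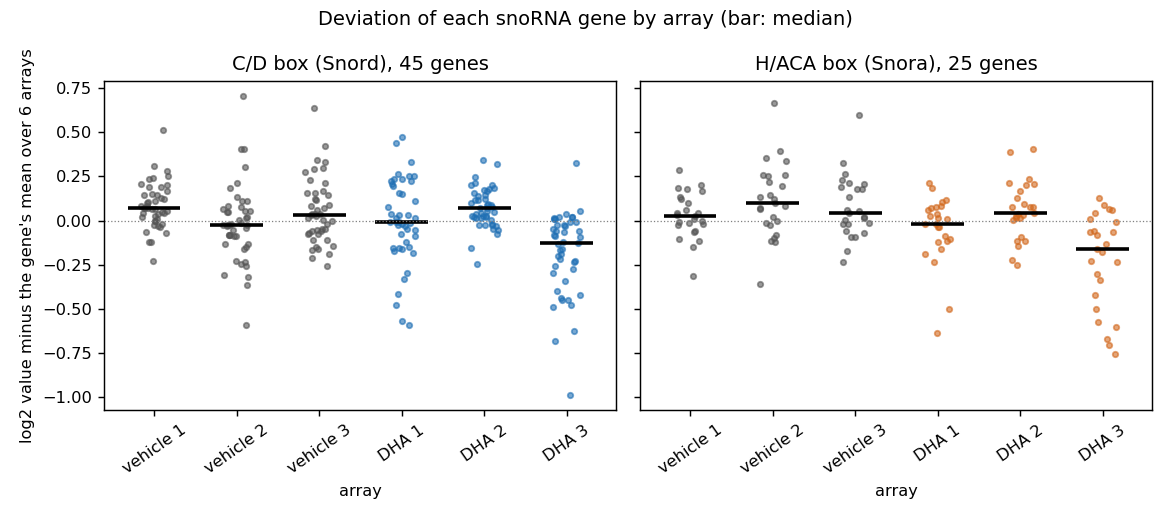
Deviation of each tested snoRNA gene from its own mean over 6 arrays (vertical, log2) for each array (horizontal), with Snord genes on the left and Snora genes on the right; bars are medians. DHA replicate 3 has the lowest medians, -0.13 and -0.16, and DHA replicate 2 lies above 0 in both classes.

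Members were also grouped by the gene that contains them in the RefSeq table, which gives no strand. A single containing gene was found for 65 of the 70, and 54 of these had a tested host, with 40 distinct hosts. Of 18 members within long noncoding RNAs 16 were lower (median -0.12), and of 18 within ribosomal protein genes 15 were lower (median -0.058). Within genes of nucleolar proteins 6 of 10 were lower (median -0.085), within translation factor genes 2 of 4 (median -0.020) and within other protein genes 12 of 15 (median -0.083). Over all tested genes 48.8% were lower. None of these members passed the test, where 0.0902% of all genes did, so that count says nothing particular about them.

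The hosts as a group were not lower. Of the 40 hosts 24 were higher and 16 lower, with a median log2 fold change of 0.020. In 44 of the 54 pairs the host had the higher fold change. Without DHA replicate 3 it did so in 35 of the 54. Host and snoRNA changed with the same sign in 26 pairs and with opposite signs in 28. In 25 of the latter the host was higher and the snoRNA lower. The median difference, host minus snoRNA, was 0.16 over the 54 pairs and 0.080 without DHA replicate 3, which was the lowest value on leaving out any 1 array. Pairs that share a host are not independent, and the same 6 arrays gave both sides.

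Wide differences came both from hosts that were higher and from hosts near 0. Snhg1 rose after DHA, from 9.34, 9.32 and 9.31 to 9.89, 9.87 and 9.87, with separate and tight groups (0.55, SE 0.042, 1.46-fold; limma adjusted p = 0.0225). Snord22 in its intron had -0.030, as given above, and the host exceeded it in change by 0.58. This difference is only a description, because Snhg1 was named for its small limma p. Leaving out any 1 array except DHA replicate 2 moved the adjusted p of Snhg1 above 0.05 (0.0385 to 0.280 over the 6 arrays in limma), with a fold change of 0.54 to 0.56.

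The host 2410006H16Rik, which lay outside the naming rule and was chosen after its values were seen, measured 11.13, 11.05 and 11.09 with vehicle and 11.88, 11.58 and 11.88 with DHA (0.69, SE 0.089; limma adjusted p = 0.0640). Its 3 snoRNA genes were near 0, at -0.052 for Snord49a, 0.015 for Snord49b and 0.077 for Snord65. The host exceeded them by 0.74, 0.67 and 0.61, given as a description with no test. Snord49b measured 11.22, 11.19 and 11.21 with vehicle and 11.45, 11.42 and 10.79 with DHA, so that its DHA arrays lay on both sides of the vehicle arrays.

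Snhg12 holds 4 tested members, the most of any host. It measured 7.12, 7.19 and 7.38 with vehicle and 7.49, 7.44 and 7.41 with DHA, with separate groups (0.22, SE 0.075; limma adjusted p = 0.336). Its members were all below 0, at -0.098 for Snora16a, -0.072 for Snora44, -0.074 for Snora61 and -0.39 for Snord99, and the first 3 of these changed sign on leaving out some single array. Snhg6 had 0.28 (SE 0.067; limma adjusted p = 0.193) and its Snord87 -0.14. The pattern was different for Snhg3, which had -0.13 (SE 0.077; limma adjusted p = 0.558) beside lower values of both its members. The host 1110038B12Rik was near 0 at 0.031 (SE 0.069; limma adjusted p = 0.890) while its Snord52 had the lowest fold change of all members, a difference of 0.61.

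**Figure D5:**
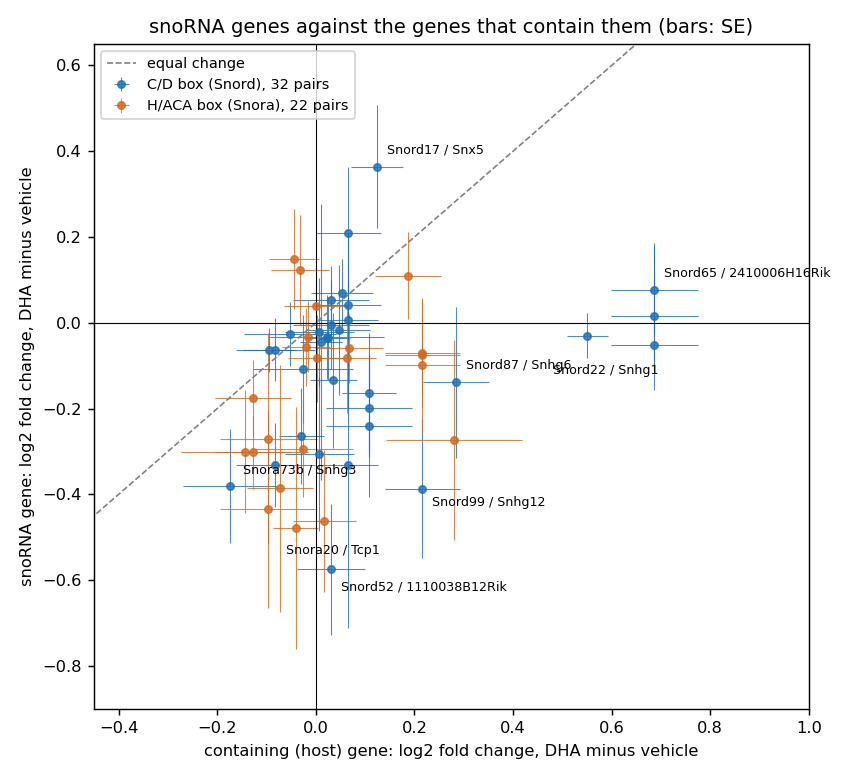
Log2 fold change of the host gene (horizontal) against that of the snoRNA gene it contains (vertical) for 32 Snord and 22 Snora pairs, with SE bars and a dashed line of equal change. Of the 54 points 44 lie below the dashed line, and the snoRNAs of Snhg1 and 2410006H16Rik lie near 0 while their hosts are at 0.55 and 0.69.

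snoRNAs of the same host could differ among themselves. Within Gnl3, Snord19 had -0.33 and Snord69 -0.062. Within Ncl, Snora75 had -0.29 and Snord82 -0.11, and within Wdr43, Snord53 had 0.21 and Snord92 0.042. The 2 members of Rpl3 were close, at -0.24 for Snord43 and -0.20 for Snord83b. These differences within a host were not tested. Snora33, within Rps12, had a second probe set whose value differed in sign, at -0.11 (mean 6.47) beside 0.040 for the probe set used (mean 12.43).

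The genes of proteins that bind snoRNAs were expressed and 0 were called. As 0.0902% of all genes were called, that count says nothing particular about so few genes. Of the core proteins of C/D box particles, Nop56 had 0.11 (SE 0.055), Nop58 0.065 (SE 0.061) and Snu13 -0.090 (SE 0.049), with limma adjusted p of 0.496, 0.711 and 0.525. Fibrillarin (Fbl) was not analysed here. The sign for Nop56 turned with other choices of its probe set. All 4 core proteins of H/ACA box particles measured lower, though Gar1 had 0.072 without vehicle replicate 2. Nop10 had -0.26 (SE 0.067; limma adjusted p = 0.218) with separate groups, at 11.45 ± 0.085 with vehicle and 11.19 ± 0.085 with DHA (SD, n = 3). The pseudouridine synthase gene Dkc1 had -0.11 (SE 0.064), Nhp2 -0.077 (SE 0.046) and Gar1 -0.081 (SE 0.14).

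Assembly and transport factors lay lower in 8 of 13 (median -0.064), with 0 called. Beside a share of 0.0902% over all genes, 0 calls in lists of this size say nothing particular about them. Coil, which encodes the scaffold of Cajal bodies, had -0.18 (SE 0.047; limma adjusted p = 0.226), the H/ACA assembly factor Shq1 -0.15, the chaperone subunit Rpap3 -0.23 and the H/ACA assembly factor Naf1 -0.10. The exosome subunits and other enzymes that trim snoRNA ends or degrade them had a median of 0.0040, with 9 of 16 higher and 0 called, among them Exosc2 at 0.13, Exosc8 at -0.11, Exosc3 at -0.074 and the deadenylase gene Parn at 0.058. Of 17 tested long noncoding hosts, Snhg1 alone was called, and 5 others were higher at an unadjusted p under 0.05, where 5.94% of all genes lay. Zfas1 had 0.77 (limma adjusted p = 0.0660), or -0.15 by its dimmest probe set, and Snhg5 0.64 (limma adjusted p = 0.0800). Both gained the call under some alternatives, with the smallest limma adjusted p at 0.0266 for Zfas1 and 0.0380 for Snhg5.

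The medians of the 6 arrays over 41345 probe sets lay between 5.25 and 5.31. The processing notes name RMA, which equalises arrays, so these medians cannot show whether the arrays were alike. limma called 14 of 15526 genes, 13 higher and 1 lower. The 14 tested markers of B-cell precursors had a mean of 10.38 to 10.45 with vehicle and 10.34 to 10.40 with DHA, as the label of the cells states. Markers of T and NK, myeloid and erythroid cells stayed between 4.65 and 5.36 on every array as list means, and those of stromal cells, which include the broadly expressed vimentin gene Vim at 12.17, between 5.73 and 5.82, with 0 called.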

How the data were processed

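The authors deposited 1 log2 intensity per probe set and array, with RMA and Partek version 6.6 named in the submitters' processing notes. Their order and settings were not stated. RMA subtracts background and equalises arrays before probes are summarised. Of 41345 probe sets 23521 had 1 gene symbol, 1814 had several and 16010 had none. Symbols were updated through Entrez identifiers to RefSeq (23328 matched, and all 73 members). The brightest probe set by 6-array mean stood for a gene. Genes under the 30th percentile were left out. DHA and vehicle were compared in limma (version 3.58.1; R version 4.3.3; default empirical Bayes, two-sided, Benjamini-Hochberg over 15526 genes; 4 residual and 2.77 prior degrees of freedom), checked on simulated data. Intervals are 95% and unadjusted. With 3 arrays per group, their number limits the precision. The replicate numbers follow accession order and only name arrays.

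The members and lists were chosen with earlier results of these data known. The rule named the 8 members per class with the smallest p, the 5 with the highest mean, members of hosts with at least 4, cleavage snoRNAs, core proteins and 4 genes of each other list. Alternatives left out arrays, or changed the filter, normalization, probe set, moderation or weights, or added a title-code term. snoRNA symbols on probe sets shared with other genes stayed out of the member counts.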

Additional observations from a re-analysis of the deposited data

How the results depend on the processing

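No paired analysis was possible because a single title code is common to both groups (vehicle replicate 3, DHA replicate 2) and the numbers used for replicates are accession order. limma called 0 Snord and 0 Snora genes under every alternative run, including adjusted p at or under 0.1. Over all genes its 14 calls became 5 without the filter, 62 with the filter at the 50th percentile, 52 with median centring, 63 with quantile normalization, 62 with trend and robust moderation, 41 with a title-code term, 0 without both title-code samples and 0 to 24 without 1 array. Without 1 array the Snord median lay between -0.085 and 0.0031 and the Snora median between -0.17 and -0.045, the lowest without DHA replicate 2; the cause was not tested. Snord genes at an unadjusted p under 0.05, 7 in all, numbered 4 to 6 on leaving out 1 array and 4 without both title-code samples, and Snora genes, 3 in all, 1 to 4. Fewer arrays are part of the construction of these. Without members that share a number, such as Snord49a and Snord49b, the medians were -0.046 (Snord) and -0.083 (Snora). Signs that changed on leaving out 1 array belong to Gar1 (-0.19 to 0.072), Snora16a (-0.21 to 0.088), Snora23 (-0.21 to 0.012), Snora33 (-0.0087 to 0.081), Snora44 (-0.18 to 0.037), Snora61 (-0.15 to 0.015), Snora7a (-0.12 to 0.048), Snord13 (-0.0092 to 0.22), Snord49b (-0.098 to 0.23) and Snord73b (-0.067 to 0.11). Other reversals were the log2 fold change of Snord49b without both title-code samples (-0.084), the log2 fold change of Snord73b under quantile normalization (0.00946), and, with other probe sets, Nop56 (-0.022 as the mean, -0.13 with the highest variance or the dimmest), Snora33 (-0.034 and -0.11) and Zfas1 (-0.15 with the dimmest). The leave-out range of the host and snoRNA difference, 0.080 to 0.19, was added after seeing the data.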

Other observations

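A further 27 snoRNA symbols stood only on probe sets that also carry another gene's symbol. These 43 probe sets held 28 distinct sets of values, of which 27 passed the filter when all 28941 probe sets above it were tested. With DHA 19 were lower and 8 higher, with a median of -0.12, where 49.9% of all probe sets were lower and their median was 0.00017. DHA replicate 3 was the lowest of the 6 arrays in many of these sets, and their median without it was not computed. limma called 0 of the 27 (smallest adjusted p 0.453) and only 2 of the 28941, or 0.00691%, so the count of 0 says nothing particular about them. At an unadjusted p under 0.05 lay 2 lower and 2 higher, beside 4.34% and 4.27% of all probe sets. The probe set of Snord12 and its host Zfas1 had -0.32 (limma adjusted p = 0.695), whereas the separate probe set of Zfas1 had 0.77. The probe set of Snora81 and the initiation factor gene Eif4a2 measured 6.16, 6.24 and 6.29 with vehicle and 5.38, 6.13 and 5.74 with DHA (-0.48, limma adjusted p = 0.565). The probe set of Snhg16 and Snord1a had 0.22 (limma adjusted p = 0.453), while Snord1b, another snoRNA within Snhg16, had -0.20.

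Snord116 copies of the imprinted cluster, which is known for its activity in neurons, shared 1 set of values on 16 probe sets, at 6.07, 5.68 and 5.49 with vehicle and 5.55, 5.50 and 5.71 with DHA. The 2 probe sets of Snora19 likewise held the same values. Exact repeats also occurred between arrays: 13 of the 70 tested snoRNA genes (18.6%) and 35.2% of all tested genes had the same value on at least 2 of the 6 arrays, among them Snord118 on vehicle replicate 2 and DHA replicate 2.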
